A study of Mus musculus with 7 samples.

Results

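The genes described here encode the muscle nicotinic acetylcholine receptor and the proteins that hold it and acetylcholinesterase at the neuromuscular junction. They were the 10 genes Chrna1, Chrnb1, Chrnd, Chrne, Chrng, Musk, Rapsn, Ache, Colq and Prima1, found by gene symbol among 22180 genes that had an array feature of their own. Of the 10, 9 had such a feature, 1 each. The only feature listed for Colq is also listed for Hacl1, so no value is given for Colq, which encodes the collagen tail of acetylcholinesterase. All 9 passed the filter on dim genes, under which 2 or more arrays had to reach their own median signal, and were among the 13364 genes tested. Of the 9, 8 reached it in all 7 arrays, and Prima1 reached it only in the 3 young WT arrays, the group in which it is highest. A gene passed the test when its p from limma, adjusted over all of these genes, was under 0.05.

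At the junction, acetylcholine from the motor nerve opens a receptor built in the adult from the alpha, beta, delta and epsilon subunits, and in fetal muscle with gamma in place of epsilon. Agrin from the nerve binds LRP4 on the fiber and activates the kinase MuSK, and rapsyn then gathers the receptors under the nerve ending. Acetylcholinesterase ends the signal and is anchored by the collagen ColQ in the synaptic matrix or by the membrane protein PRiMA. When a rodent muscle loses its nerve, the alpha and gamma subunits and MuSK are classically transcribed along the whole fiber. The 3 groups were therefore compared for a pattern of that kind.

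RNA of whole skeletal muscle from C57BL/6 mice was hybridized to 7 arrays, each a biological replicate. Young WT mice (2 to 3 months) gave 3 arrays, aged WT mice (24 months) gave 2, and aged MISR mice (24 months) gave 2. MISR mice carry a transgene for a super-repressor form of the NF-κB inhibitor IκB, driven by the muscle creatine kinase promoter, so that NF-κB is blocked in muscle fibers for life. Young and aged WT mice lack it, and no young MISR mice were on the arrays. Per the methods, the WT animals were bought and the MISR line was kept locally, a difference that cannot be told apart from genotype. For its regeneration studies the paper states that MISR mice aged together with WT controls, which it does not state for the arrays. WT mice came from Jackson Laboratories and Charles River Labs, and which of them supplied which age is not stated. The muscle sampled and the animals' sex are not stated. Replicates are named as labelled (1 to 3 for young WT, 2 and 3 for aged WT, 1 and 2 for aged MISR). All values are log2 RMA signals, and in whole muscle fewer cells of a type and less RNA per cell cannot be told apart.

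Some arrays stood apart. The median of 9 megakaryocyte and platelet markers, each taken relative to its mean over the 7 arrays, was 1.08 (log2) in aged MISR 1 and at most 0.21 elsewhere. The median of 6 adipocyte markers was 1.0 in aged MISR 2 and at most -0.04 elsewhere. Slow fiber markers (10 genes) had medians of 0.45 to 0.52 (young WT), -0.53 to -0.07 (aged WT) and -0.99 to -0.01 (aged MISR), while those of 9 fast fiber markers stayed between -0.06 and 0.02. Macrophage markers (10 genes) had medians of 0.50 to 0.55 in aged MISR arrays and at most 0.03 elsewhere, and of all marker genes only Ctss, a macrophage protease, passed the test (1.04 above young WT in aged MISR, adjusted p = 0.0455). Creatine kinase Ckm (13.34 to 13.54) and fast myosin Myh4 (13.67 to 13.75) were high in every array. Nfkbia, the gene of IκBα, read 9.01, 8.98 and 8.94 (young WT), 8.55 and 7.97 (aged WT) and 8.17 and 8.94 (aged MISR). Whether this feature reads the transgene is not known, so it does not test the labels.

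Promoters of 7 of the 10 genes were found in RefSeq (GRCm38.p6), as 250 bases before and 50 after a transcription start. They are shown for Prima1, the only one of these genes to pass the test, for Chrnb1, the subunit with the greatest difference between the ages, and for the fetal and adult subunits Chrng and Chrne. Capitals mark E-boxes (CANNTG), the sites of myogenic factors such as MyoD and myogenin, and the N-box (CCGGAA), a site of ETS-family factors known from genes of synaptic nuclei. Both strands were searched, and E-boxes read the same on either strand.
Prima1, chr12:103242097-103242396, minus strand: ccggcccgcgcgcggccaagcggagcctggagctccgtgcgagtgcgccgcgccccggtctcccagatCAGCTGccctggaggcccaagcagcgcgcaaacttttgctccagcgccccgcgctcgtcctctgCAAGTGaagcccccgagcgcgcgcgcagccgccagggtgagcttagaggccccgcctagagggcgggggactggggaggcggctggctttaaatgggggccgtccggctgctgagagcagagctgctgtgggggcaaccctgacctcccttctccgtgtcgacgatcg
Chrnb1, chr11:69795888-69796187, minus strand: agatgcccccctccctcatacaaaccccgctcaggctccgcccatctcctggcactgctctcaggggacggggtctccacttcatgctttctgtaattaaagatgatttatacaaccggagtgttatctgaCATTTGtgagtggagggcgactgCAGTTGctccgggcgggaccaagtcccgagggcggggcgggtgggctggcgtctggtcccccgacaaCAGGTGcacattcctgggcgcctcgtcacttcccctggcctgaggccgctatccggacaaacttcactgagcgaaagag
Chrng, chr1:87205561-87205860, plus strand: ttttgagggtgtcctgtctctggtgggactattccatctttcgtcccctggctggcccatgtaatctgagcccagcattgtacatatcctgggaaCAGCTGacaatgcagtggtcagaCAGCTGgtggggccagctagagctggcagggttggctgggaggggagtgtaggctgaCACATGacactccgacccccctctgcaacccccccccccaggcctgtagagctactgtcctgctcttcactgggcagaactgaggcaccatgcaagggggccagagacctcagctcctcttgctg
Chrne, chr11:70619145-70619444, minus strand: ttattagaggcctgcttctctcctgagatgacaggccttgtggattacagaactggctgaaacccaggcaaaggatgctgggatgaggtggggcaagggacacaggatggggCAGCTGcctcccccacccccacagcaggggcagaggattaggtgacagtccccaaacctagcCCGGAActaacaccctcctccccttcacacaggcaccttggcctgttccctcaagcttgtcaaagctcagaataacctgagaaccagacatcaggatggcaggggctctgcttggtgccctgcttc
Each of the 7 promoters held an E-box, as did 72.3% of 32851 promoters of the same length. Chrna1, Chrnb1, Chrng and Musk held 3 each, a number that 17.6% of all promoters reached. The form CAGCTG stood in 5 of the 7 (16.3% of all) and was not found in the windows of Chrnb1 and Ache. The N-box stood in Chrne, at -76 to -71 from the start, and in none of the other 6 (14.9% of all). The NF-κB consensus was found in none of the 7 and in 8.46% of all promoters. These are matches of letters, not sites of binding.

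Among the receptor subunits, no gene passed the test in any comparison, and the subunits did not move together. The beta subunit Chrnb1 was higher in both aged groups, and the delta and gamma subunits Chrnd and Chrng were lower in aged WT muscle. The epsilon subunit Chrne was close to its young level. The alpha subunit Chrna1 was above young WT by 0.13 in aged WT and by 0.18 in aged MISR muscle. For Chrna1, the aged MISR arrays lay above all young arrays, while the aged WT arrays overlapped them.

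Chrnb1 encodes the beta subunit, found in fetal and adult receptors alike. Its signal was 8.98, 9.10 and 9.17 (young WT), 9.997 and 9.59 (aged WT) and 9.63 and 9.63 (aged MISR). Every aged array lay above every young one, and aged WT 2 was the highest. In aged WT against young WT muscle the difference was 0.71 (1.63-fold, 95% interval 0.42 to 0.998, adjusted p = 0.0819 from limma). For aged MISR against young WT it was 0.54 (1.46-fold, adjusted p = 0.108). The mean of both aged groups was 0.63 above young WT (1.54-fold, standard error 0.10, adjusted p = 0.0597), just short of the threshold of 0.05. Aged MISR minus aged WT was -0.16 (95% interval -0.48 to 0.15, adjusted p = 0.656), and it was 0.04 without aged WT 2. Against young WT, aged WT was higher by 0.50 without that array and by 0.91 without aged WT 3.

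Chrng encodes the gamma subunit of fetal muscle, the one that returns after nerve loss in rodents. It read 6.49, 6.57 and 6.90 (young WT), 6.11 and 6.17 (aged WT) and 6.27 and 6.75 (aged MISR). Both aged WT arrays lay below all young arrays, and the 2 aged MISR arrays were 0.48 apart, on either side of young WT 1 and 2. Aged WT was 0.51 below young WT (0.70 of the young signal, 95% interval -0.90 to -0.12, adjusted p = 0.217). The unadjusted interval lay below 0, and the difference did not pass. In aged MISR muscle Chrng was 0.36 above aged WT (adjusted p = 0.474), 0.60 without aged MISR 1 and 0.12 without aged MISR 2.

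Chrnd, the delta subunit gene, is the neighbor of Chrng on chromosome 1. Its values were 6.91, 6.91 and 7.08 (young WT), 6.71 and 6.46 (aged WT) and 6.73 and 6.92 (aged MISR). The order of the groups was that of Chrng, with aged WT lowest, aged MISR between and young WT highest, and again only aged WT was clear of the young arrays. Aged WT was 0.38 below young WT (95% interval -0.63 to -0.13, adjusted p = 0.174), and aged MISR was 0.24 above aged WT (adjusted p = 0.466). The neighbors in this order did not differ by the test. Markers of fibro-adipogenic progenitors, cells of the connective tissue (6 genes), were likewise lowest in aged WT, with medians of -0.43 to -0.18 there, 0.05 to 0.14 (young WT) and -0.08 to 0.36 (aged MISR). Their part in the values of Chrng and Chrnd was not tested.

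Chrne encodes the epsilon subunit of the adult receptor. It had the narrowest range of the 9 genes, with 8.81, 8.91 and 8.82 (young WT), 8.83 and 8.74 (aged WT) and 8.84 and 8.77 (aged MISR). All groups overlapped. The difference was -0.06 in aged WT (95% interval -0.22 to 0.10, adjusted p = 0.675) and -0.04 in aged MISR muscle (95% interval -0.20 to 0.12, adjusted p = 0.769), each against young WT. Chrne overlaps the gene 4930544D05Rik in the annotation, and whether the feature separates them was not tested.

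The fetal and adult subunits can be set against each other within an array by the shift of Chrng minus Chrne from its mean in young WT. This shift was -0.13, -0.15 and 0.27 (young WT), -0.52 and -0.38 (aged WT) and -0.39 and 0.17 (aged MISR). No aged array lay above the highest young one.

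Chrna1, the alpha subunit gene that binds acetylcholine and is a standard marker of denervated rodent muscle, read 9.48, 9.50 and 9.62 (young WT), 9.86 and 9.48 (aged WT) and 9.68 and 9.75 (aged MISR). Aged WT 3 lay among the young arrays and the other aged arrays lay above them. The difference was 0.13 in aged WT (95% interval -0.13 to 0.40, adjusted p = 0.591) and 0.18 in aged MISR muscle (95% interval -0.09 to 0.45, adjusted p = 0.411), each against young WT. In aged WT its sign turned to -0.05 without aged WT 2.

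**Figure D1:**
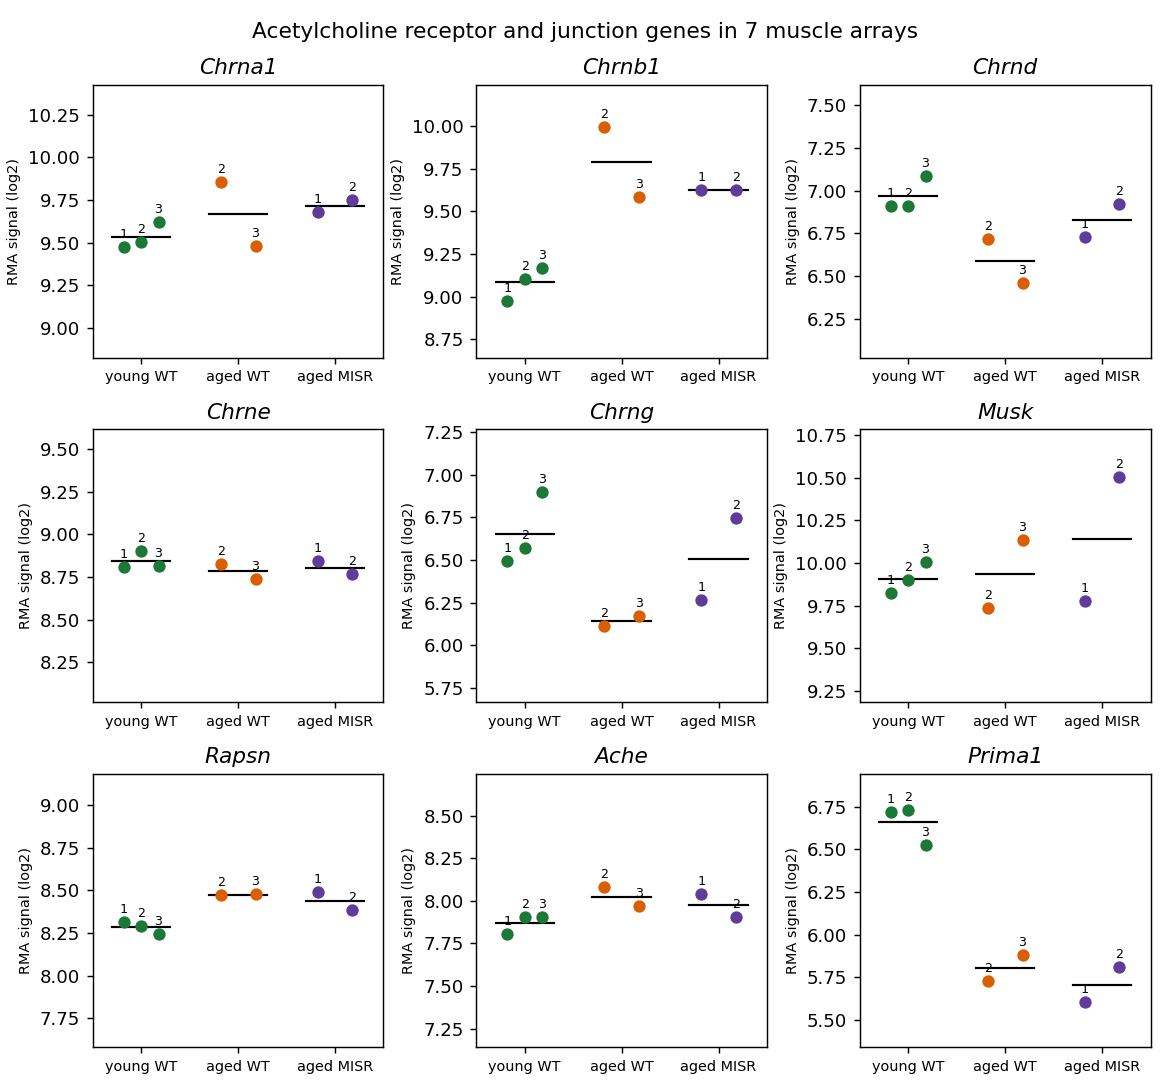
RMA signal (log2, vertical axis) of the 9 measured genes in the 7 arrays, with numbers giving the replicate, bars the group means, and the same span of the axis in every panel. Prima1 is lower and Chrnb1 and Rapsn are higher in all 4 aged arrays than in any young array, and the aged MISR arrays are 0.72 apart for Musk.

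Of the genes that gather the receptors, rapsyn was slightly higher with age and MuSK varied within the groups. Rapsn, the scaffold that binds receptors from inside, read 8.31, 8.29 and 8.24 (young WT), 8.47 and 8.48 (aged WT) and 8.49 and 8.39 (aged MISR). All 4 aged arrays exceeded all 3 young arrays, by a small margin. The difference was 0.19 in aged WT (1.14-fold, 95% interval 0.04 to 0.34, adjusted p = 0.223) and 0.16 in aged MISR muscle (1.11-fold, adjusted p = 0.252) against young WT, and neither passed.

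Musk, the receptor kinase that starts clustering, read 9.82, 9.90 and 10.01 (young WT), 9.74 and 10.14 (aged WT) and 9.78 and 10.50 (aged MISR). In each aged group 1 array lay below and 1 above all the young arrays. The aged WT arrays were 0.40 apart and the aged MISR arrays 0.72 apart, against a range of 0.18 in young WT. The differences from young WT were 0.03 in aged WT (95% interval -0.47 to 0.53, adjusted p = 0.961) and 0.23 in aged MISR muscle (95% interval -0.27 to 0.73, adjusted p = 0.563). Both turned negative without the higher aged array, to -0.17 and -0.13. The spread within the groups thus exceeded the differences between them. The highest value came from aged MISR 2, the array with the high adipocyte markers, whose part in it was not tested.

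Prima1 fell in both aged groups. It encodes PRiMA, the proline-rich membrane anchor that holds acetylcholinesterase tetramers on the cell surface. Its signal was 6.72, 6.73 and 6.52 (young WT), 5.73 and 5.88 (aged WT) and 5.60 and 5.81 (aged MISR). The highest aged array was well below the lowest young array, and the aged groups overlapped. In aged WT muscle Prima1 fell to 0.55 of the young signal (log2 difference -0.85 ± 0.10 standard error, limma, adjusted p = 0.0398). In aged MISR muscle it fell to 0.52 (-0.95, standard error 0.10, adjusted p = 0.0266). Both values use the same 3 young arrays. Over both aged groups the difference was -0.90 (95% interval -1.10 to -0.70, adjusted p = 0.0199), the 21st largest fall of 13364 genes. Aged MISR minus aged WT was -0.10 (95% interval -0.36 to 0.16, adjusted p = 0.758). The array medians were 5.86 to 5.93, and every aged value lay below the median of its own array, so Prima1 entered the test only through young WT. Without the filter the difference in aged WT did not pass (adjusted p = 0.0654), while those in aged MISR (0.0409) and over both aged groups (0.0293) did.

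The call of Prima1 in aged WT muscle was lost when any 1 of the young or aged WT arrays was left out. The difference stayed between -0.93 and -0.78. For the MISR group, the call was lost without any 1 of the young or aged WT arrays or aged MISR 1, with differences of -1.02 to -0.85. For the mean of the aged groups it was lost without any 1 young array or without aged WT 2. These losses were not particular to Prima1. Without any 1 young array, 0 of all 13364 tested genes were called in aged WT against young WT. In aged MISR against young WT 0 to 2 were called, and 0 to 1 over both aged groups. Slow fiber markers moved with Prima1: in aged WT 10 of 10 and in aged MISR muscle 9 of 10 were below young WT. Among the aged arrays the order was mixed. Prima1 in aged MISR 2 (5.81) exceeded that in aged MISR 1 (5.60), with slow fiber medians of -0.01 and -0.99, but aged WT 3 (5.88) also exceeded aged WT 2 (5.73), with medians of -0.53 and -0.07. The part of fiber type in its fall was not tested. Satellite cell markers were also lower in 7 of 8 genes in each aged group (median -0.17 in aged WT and -0.23 in aged MISR), and their part was not tested either.

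Ache, the gene of acetylcholinesterase itself, stayed near its young level. It read 7.81, 7.90 and 7.90 (young WT), 8.08 and 7.97 (aged WT) and 8.04 and 7.90 (aged MISR), with the same value in 3 arrays. Both aged WT arrays lay above the young arrays by a small margin, and aged MISR 2 equaled young WT 2 and 3. The difference from young WT was 0.15 in aged WT (95% interval -0.03 to 0.33, adjusted p = 0.374) and 0.10 in aged MISR muscle (95% interval -0.08 to 0.28, adjusted p = 0.477). Mouse megakaryocytes also make acetylcholinesterase, and their markers were high in aged MISR 1. Ache in that array (8.04) lay between the 2 aged WT arrays and above aged MISR 2 (7.90). The part of megakaryocytes in the values of Ache was not tested. Taken within an array, Prima1 minus Ache shifted by -1.14 and -0.87 (aged WT) and -1.22 and -0.88 (aged MISR) from its mean in young WT. The young arrays themselves lay between -0.17 and 0.13. As Ache differed little, this shift mostly repeats the fall of Prima1 and is no separate result.

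**Figure D2:**
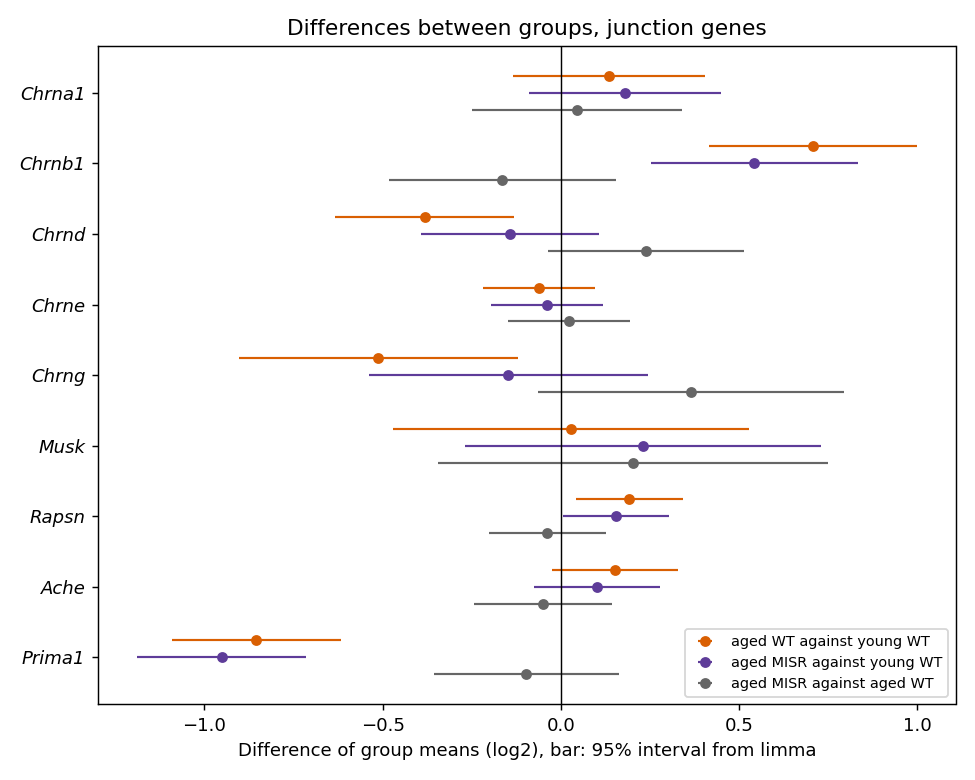
Difference of group means (log2, horizontal axis) for the 9 genes in the 3 comparisons of 2 groups, with 95% intervals from limma as bars. The intervals of Prima1, Chrnb1 and Rapsn are clear of 0 for both aged groups against young WT, and all 9 intervals of aged MISR against aged WT include 0.

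Counted over the 9 genes, 1 (Prima1) passed the test in aged WT against young WT muscle, where 0.18% of all tested genes did. Without the filter on dim genes the count was 0, as it was over all 22180 genes. At an unadjusted p under 0.05 there were 5 (15.7% of all genes), namely Chrnb1, Chrnd, Chrng, Rapsn and Prima1. The arrays of the 2 groups did not overlap in 6 of 9, 3 higher and 3 lower (37.7% of all genes). The median difference was 0.03, against 0.01 over all tested genes, with 5 genes higher and 4 lower. Between aged MISR and young WT, 1 of 9 passed (0.591% of all), 3 were at an unadjusted p under 0.05 (18.8%), and 4 did not overlap (38%). For the mean of the aged groups against young WT the counts were 1 (0.584%), 5 (19.6%) and, for all 4 aged against all 3 young arrays, 3 (16.6%). These comparisons share the young arrays.

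Between the 2 aged groups, the comparison that asks what the block of NF-κB in fibers did, none of the 9 passed (0.0524% of all tested genes did), and at an unadjusted p under 0.05 there was likewise 0 (12.2%). The 2-group test, which the methods name for other measurements and not for the arrays, also called 0. In 2 genes, Chrng and Chrnd, the MISR arrays both exceeded the aged WT ones (35.8% of all genes did not overlap). The differences ran from -0.16 (Chrnb1) to 0.36 (Chrng), with a median of 0.02. With 2 arrays a side, the intervals were still wide, for instance -0.34 to 0.75 for Musk and -0.06 to 0.79 for Chrng.

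Of 15 other genes of the agrin and neuregulin pathways at the junction, 13 were tested and none of these passed in any comparison, while Nrg1 and Erbb4 were below the filter. Of the 15, 7 were higher and 8 lower with age in WT muscle (median -0.05). Agrn, the gene of agrin, was level, with values of 7.07 to 7.17 in all 7 arrays. Lrp4, the agrin receptor, read 7.82, 7.98 and 7.84 (young WT), 7.52 and 7.62 (aged WT) and 7.74 and 7.96 (aged MISR). Aged WT lay below both other groups, by 0.31 against young WT (adjusted p = 0.190) and by 0.28 against aged MISR (adjusted p = 0.348). Erbb3, a neuregulin receptor of Schwann cells and muscle, was 0.43 lower in aged WT (adjusted p = 0.172) and 0.04 higher in MISR muscle than in age-matched WT. The 8 measured Schwann cell markers were evenly split in aged WT against young WT (4 higher, 4 lower), and their signals were low, with array medians of 6.12 to 6.32. Gabpb1, a subunit of the factor that binds the N-box, was 0.21 higher in aged WT (adjusted p = 0.245) and Crk, an adaptor downstream of MuSK, 0.16 (adjusted p = 0.439). Dok7, the cytoplasmic activator of MuSK, was 0.16 lower in MISR muscle than in age-matched WT (adjusted p = 0.554), Etv4 was 0.12 lower (adjusted p = 0.616) and the ubiquitin ligase Pdzrn3 0.26 higher (adjusted p = 0.477).

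Of 14 measured genes of the junctional matrix and scaffold, 9 were lower with age in WT muscle (median -0.09) and 8 were higher in MISR muscle than in age-matched WT (median 0.07), none past the test. Hspg2, which encodes perlecan, the matrix partner of ColQ, was 0.50 lower in aged WT muscle (adjusted p = 0.166). It was 0.38 higher in MISR muscle than in age-matched WT (adjusted p = 0.367). The markers of fibro-adipogenic progenitors were likewise lowest in aged WT, and their part in these matrix genes was not tested. Nes (nestin), an intermediate filament enriched under the junction, read 7.67, 7.72 and 7.67 (young WT), 7.25 and 7.44 (aged WT) and 7.67 and 7.78 (aged MISR). Aged WT was thus below both other groups, by 0.34 against young WT (adjusted p = 0.131) and 0.38 against aged MISR (adjusted p = 0.166). Lama4, a laminin chain of synapses and vessels, was 0.44 higher in MISR muscle than in age-matched WT (adjusted p = 0.374). The scaffold genes Dtna and Ank3 were 0.20 and 0.17 higher with age in WT muscle, and Ank3 and Col13a1 were 0.24 and 0.17 lower in MISR muscle than in age-matched WT (adjusted p 0.411 to 0.561). Bche, a secreted relative of acetylcholinesterase, was 0.43 lower with age in WT muscle (adjusted p = 0.178) and 0.23 higher in MISR muscle than in age-matched WT (adjusted p = 0.526).

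Genes that nerve loss induces in rodents were higher in part. Of 16 measured, 12 were higher with age in WT muscle, as were 6982 of all 13364 tested genes (median 0.24 against 0.01). In aged MISR against young WT 12 were higher, as were 8116 of all tested genes (median 0.16 against 0.04). At an unadjusted p under 0.05 from limma there were 9 in aged WT (15.7% of all genes) and 3 in aged MISR (18.8%). In aged WT 10 genes lay higher and 2 lower without overlap of the arrays (37.7% of all genes in either direction). In aged MISR these were 5 and 1 (38%). Against young WT, 0.18% of all tested genes passed the test in aged WT and 0.591% in aged MISR. Of the 16, only Ankrd1, a stress-responsive sarcomere protein, passed (1.30 in aged WT, adjusted p = 0.0348, and 1.36 in aged MISR, adjusted p = 0.0214). Its call in aged WT was lost without any 1 of the young or aged WT arrays and without the filter on dim genes. That in aged MISR was lost without any 1 of those arrays or aged MISR 1. Without any 1 young array, or without the filter, 0 of all genes were called in aged WT against young WT. Cdkn1a, a cell cycle inhibitor, was 0.92 higher in aged WT (adjusted p = 0.154). Rrad, a small GTPase-like regulator of calcium channels, was 1.11 higher in aged WT (adjusted p = 0.315), with 9.27 in aged WT 3 against 7.87 in aged WT 2. Myog (myogenin), which acts on the E-boxes of receptor genes, read 7.23, 7.44 and 7.29 (young WT), 7.98 and 7.53 (aged WT) and 7.59 and 7.36 (aged MISR). Aged WT 2 was highest, as it was for Chrna1 and Chrnb1, and the difference in aged WT was 0.44 (adjusted p = 0.217). Runx1, a factor of denervated fibers, was 0.44 higher in aged WT (adjusted p = 0.139) and stayed high in aged MISR (0.09 above aged WT). Ncam1, a classic surface marker of denervated fibers, and the embryonic myosin Myh3 were 0.14 and 0.19 lower with age in WT muscle and 0.30 and 0.24 higher in MISR muscle than in age-matched WT. Kcnn3, a potassium channel of denervated fibers, was 0.44 higher with age in WT muscle (adjusted p = 0.104). It was 0.45 lower in MISR muscle than in age-matched WT (adjusted p = 0.150). The rises of Myog, Runx1 and Kcnn3 in aged WT were not the largest left in the list. Trim63 rose more than these with age in WT muscle, by 0.49 (adjusted p = 0.293), and was 0.37 lower in MISR muscle than in age-matched WT (adjusted p = 0.530). Myod1 was 0.29 higher with age in WT muscle (adjusted p = 0.256) and 0.41 lower in MISR muscle than in age-matched WT (adjusted p = 0.231). Agrn, Myog, Runx1, Kcnn3, Trim63 and Myod1 were named after their values had been seen. Rrad and Cdkn1a were 0.60 and 0.47 lower in MISR muscle than in age-matched WT (adjusted p = 0.668 and 0.511). Of 4 genes that nerve loss reduces, Ppargc1a was 0.13 and Dach2 0.02 lower with age in WT muscle, Pvalb was 0.04 higher, Hdac9 was level, and none passed.

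**Figure D3:**
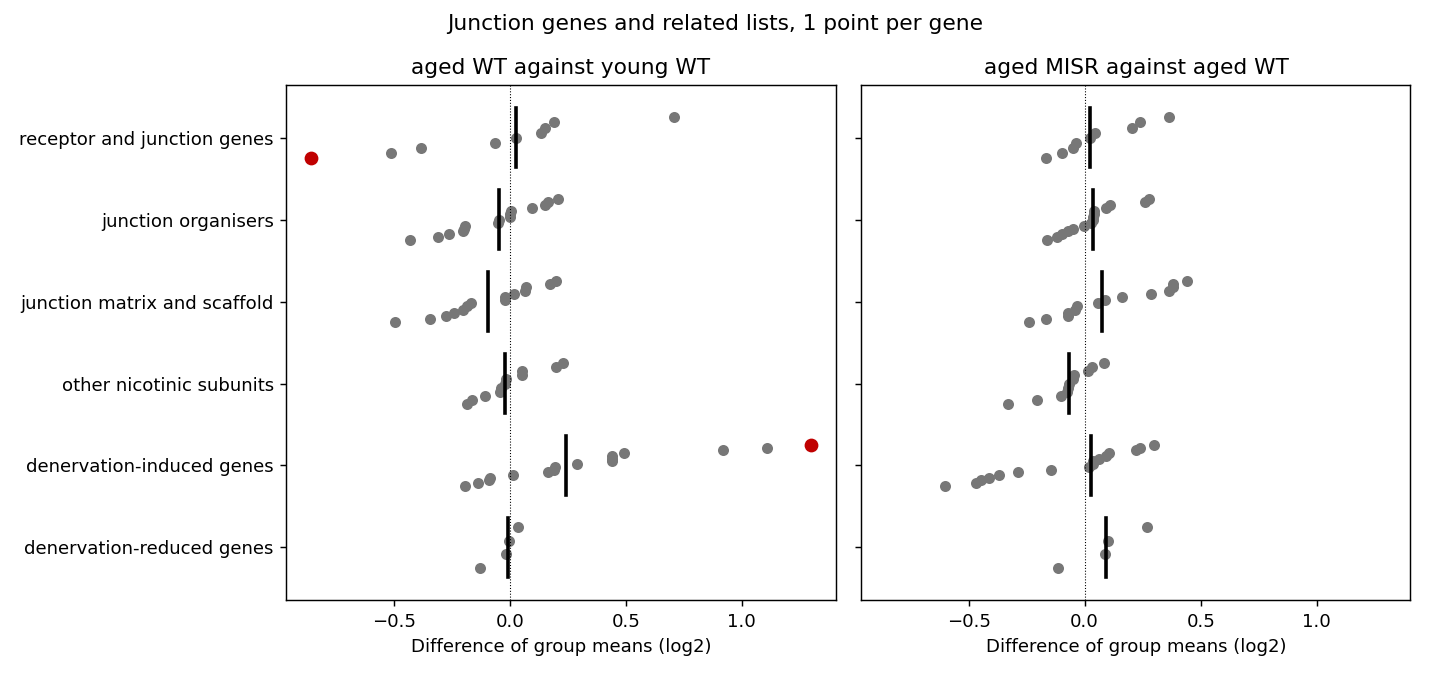
Difference of group means (log2, horizontal axis) for each gene of 6 lists, with aged WT against young WT on the left and aged MISR against aged WT on the right. Points in red passed limma's test and black bars are list medians: Prima1 at -0.85 and Ankrd1 at 1.30 are the 2 red points on the left, and no point on the right is red.

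The pattern of Prima1 over the 7 arrays was shared most closely by 5 genes, ranked among all tested genes by the root mean square difference of log2 values after each gene was centered on its own mean. E230001N04Rik was nearest (0.09), followed by Igf1 (0.13), Hoxd8 (0.14), Dusp10 (0.15) and Cep85l (0.16). Igf1, the insulin-like growth factor, read 9.01, 8.96 and 8.67 (young WT), 7.84 and 8.14 (aged WT) and 7.92 and 8.37 (aged MISR). Its difference over both aged groups was -0.82 (adjusted p = 0.0633). Dusp10, a phosphatase of MAP kinases, differed by -1.15 (adjusted p = 0.0173), Hoxd8, a homeobox gene, by -0.67 (adjusted p = 0.0287), E230001N04Rik by -0.91 (adjusted p = 0.0173) and Cep85l by -0.77 (adjusted p = 0.0345). In each of the 5, all aged arrays lay below all young arrays, as the choice by likeness entails.

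**Figure D4:**
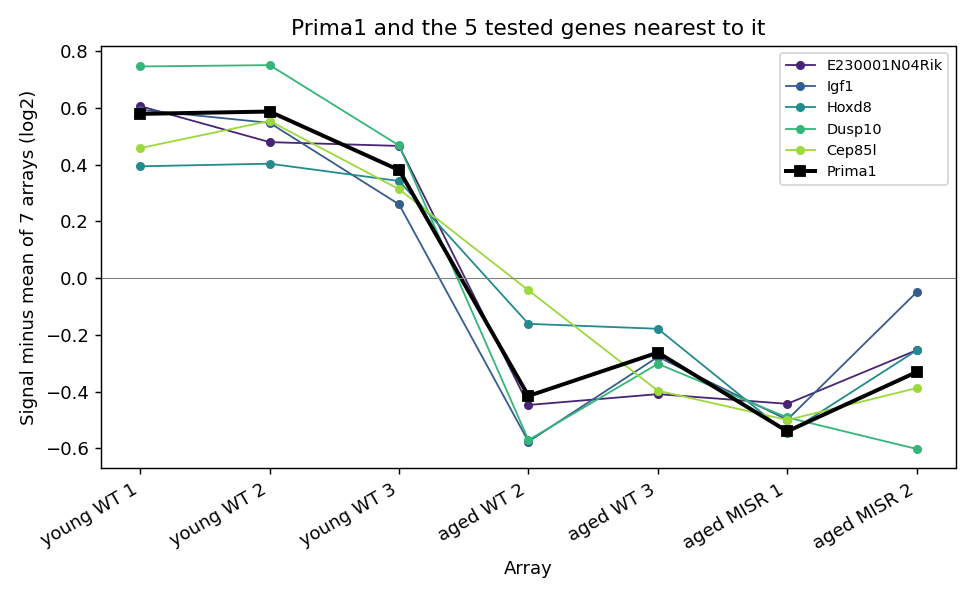
Signal minus the mean of the 7 arrays (log2, vertical axis) of Prima1 (black squares) and the 5 tested genes nearest to it (colored circles), by array. The 3 young WT arrays are above 0 and the 4 aged arrays below 0 for all 6 genes.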

How the data were processed

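The authors hybridized total RNA of whole muscle to 1-colour Affymetrix Mouse Gene 2.0 ST arrays and normalized them by RMA. Deposited log2 signals were used unchanged. No source used here gives the RMA version. Features were named from the platform's gene table. Of 41345 features, 23521 had 1 symbol. The feature with the highest mean stood for a gene, and a gene was tested when it reached the array median in at least 2 arrays. All 7 arrays entered a single linear model (limma 3.58.1, R 4.3.3) with a mean per group (4 residual and 3.13 prior degrees of freedom), with Benjamini-Hochberg adjustment over 13364 genes and a threshold of 0.05. Intervals are 95% intervals of that fit and are not adjusted. Every tested gene enters the adjustment, and RMA's compression of dim signals can make differences near background too small. Precision is limited by how few arrays there are.

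The 10 genes and the other lists were chosen with earlier results of these data known, so their counts are descriptions. The lists come from textbook knowledge. Named from them were genes that passed. Otherwise the 2 largest rises and the 2 largest falls were named, in aged WT against young WT and in aged MISR against aged WT muscle. Some others were added after their values had been seen, among them Agrn, Myog, Runx1, Kcnn3, Trim63 and Myod1. Age group (young or old) and genotype were taken from the sample titles, and the ages in months are those that the paper states. The fit was tested on simulated data. The alternatives were a second quantile normalization, median centring, no filter or a 60th-percentile filter, averaging the features of a gene, and dropping arrays. Others were the replicate number as a block, another variance prior, array weights, fits of the compared groups only, and a threshold of 0.1. Also run was the 2-group test that the study's methods name for other measurements. For the arrays the methods name no test and chose candidates by fold-change.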

Additional observations from a re-analysis of the deposited data

How the results depend on the processing

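Of 675 differences of single genes under an alternative, 620 kept their sign and their side of the threshold, 26 lost and 7 gained a call, and 22 turned sign without a call on either side. Those 22 were small differences, most often of Musk (aged WT against young WT) and Chrne (aged MISR against aged WT), with 4 each. All losses were of Prima1 and all gains of Chrnb1, whose direction against young WT held under every alternative run.

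The count of genes called in aged WT against young WT muscle was 1 and became 0 without the signal filter, with the 2-group test of the methods and without aged MISR 1 and aged WT 2 together. It was 2 (Chrnb1 and Prima1) with array weights and at a threshold of 0.1. Over all tested genes, 24 were called in the main fit, 118 with array weights and 156 at 0.1. Without the signal filter, 0 of 22180 genes were called, so the count of these genes moved with that of all genes. Leaving out 1 array gave 0 to 1. Between aged MISR and young WT the count of 1 became 0 in a fit of the compared groups only, with the 2-group test and without those 2 arrays together, and leaving out 1 array gave 0 to 1. For the mean of the aged groups it was 2 with arrays centred on their medians, with the other variance prior, with array weights and at 0.1, and 0 with the 2-group test and without those 2 arrays, and leaving out 1 array gave 0 to 2. Between the aged groups it was 0 under every alternative run. Over all tested genes, the mean of the aged groups against young WT called 78 in the main fit. That number was 108 with arrays centred on their medians, 172 with the other variance prior, 242 with array weights and 389 at 0.1. A group reduced to 1 array borrows the spread of the others.

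With the replicate number as a replicate block, Prima1 was not called, and the counts of 1 became 0. Its difference against young WT was -0.86 in aged WT (limma, adjusted p = 0.208) and -0.96 in aged MISR (adjusted p = 0.157). That fit left 2 residual degrees of freedom and called 0 of 13364 genes in every comparison. Between arrays with the same number, deviations from the group means had correlations across genes of -0.22 to -0.01. In groups this small the deviations of the arrays are tied to each other, so these values cannot tell whether the numbers pair arrays. Signal over background limits what can be measured for Prima1, whose aged values lie below the array medians. It also limits 9 of 11 neuronal subunits, which are below the filter. Chrng and Chrnd were dim too, with means at the 51.7th and 57.4th percentiles of all genes. Ankrd1, like Prima1, was not called against young WT with the replicate block or with the 2-group test.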

Other observations

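The neuronal relatives of the receptor subunits were dim. Of 11 nicotinic subunit genes outside the muscle receptor, 2, Chrna4 and Chrna7, lay above the filter on dim genes. Chrna7, whose receptor is also found on macrophages, read 7.41, 7.28 and 7.39 (young WT), 7.21 and 7.29 (aged WT) and 7.10 and 7.26 (aged MISR). Chrna4 was 0.18 lower with age in WT muscle (limma, adjusted p = 0.429) and 0.03 higher in MISR muscle than in age-matched WT (adjusted p = 0.935). Below the filter, Chrna6 was 0.16 lower and Chrna9 and Chrnb2 were 0.20 and 0.23 higher with age in WT muscle. Between the aged groups (MISR against WT), Chrna9 and Chrnb4 were 0.33 and 0.20 lower and Chrna5 was 0.08 higher. Genes below the filter were not tested.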
